A study of Mus musculus with 17 samples.

Results

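The unfolded protein response of the endoplasmic reticulum (ER) was examined in mouse hearts through 10 genes of 56748 in the deposited table. The genes were taken by name from a fixed list of ER chaperones, folding enzymes and stress sensors, namely Ern1, Atf6, Xbp1, Hspa5, Hsp90b1, Calr, Dnajb9, Sdf2l1, Pdia4 and Herpud1, and the rule itself uses no measured value, although the list was drawn up with earlier results of these data known. All 10 passed the filter on low counts, along with 16195 genes in total. The study made bulk RNA-seq libraries of heart tissue from mice aged 12 to 16 months, 1 library per mouse, with 9 hMut and 8 control (Ctrl) mice. The labels say heart tissue and do not name the part of the heart that was taken. The hMut mice were homozygous for the Polg iMut allele and carried Ckmm-cre. In this allele, Cre removes a wild-type Polg cassette so that the mitochondrial DNA polymerase is made without working proofreading, and the muscle creatine kinase promoter limits Cre to striated muscle. Cells of the heart that do not use this promoter, such as fibroblasts, endothelial cells and leukocytes, therefore keep the unrecombined allele but contribute RNA to each library. The labels call the other group Ctrl and give no genotype for single control animals. The libraries measure heart tissue after more than a year of life, not an acute ER stress.

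Proteins that enter the ER are folded there by chaperones, and an excess of unfolded protein is sensed by 3 transmembrane proteins, IRE1 (encoded by Ern1), ATF6 and PERK (encoded by Eif2ak3). IRE1 splices the mRNA of Xbp1 into the form that encodes an active transcription factor, ATF6 is cut in the Golgi to release one, and PERK phosphorylates eIF2α, which lowers general translation and favours that of ATF4. ATF6 and spliced XBP1 raise the transcription of ER chaperones and of the machinery that degrades misfolded proteins, whereas ATF4 is also reached from other eIF2α kinases. Cardiomyocytes hold a specialised ER, the sarcoplasmic reticulum, which stores calcium, and several of the chaperones bind calcium themselves. Counts per gene do not separate spliced from unspliced Xbp1, and they do not record the cleavage of ATF6 or the phosphorylation of IRE1.

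The libraries held 32915159 to 40175122 counts in hMut hearts and 34425783 to 46486964 in Ctrl hearts. Between 15.9 and 23.0% of hMut counts and between 23.5 and 30.9% of Ctrl counts fell on genes encoded by mitochondrial DNA, so the groups did not overlap in this share. With library sizes taken without these genes, Ern1 was again the 1 member called. Polg itself measured 57.9 ± 6.08 CPM (TMM-normalized counts-per-million, mean ± SD, n = 9) in hMut hearts and 34.7 ± 7.31 CPM (n = 8) in Ctrl hearts. The groups overlapped in 1 pair of hearts, hMut replicate 6 at 47.0 CPM and Ctrl replicate 8 at 47.2 CPM, and recombination of the allele was not examined. The 10 cardiomyocyte markers were present in every library, at a summed level of 55381 to 66817 CPM in Ctrl and 40935 to 65996 CPM in hMut hearts. Replicates 6 and 9 of hMut had the highest sums of fibroblast and macrophage markers. In hMut replicate 6 the 10 fibroblast markers summed to 2188 CPM and the 10 macrophage markers to 1386 CPM, and in hMut replicate 9 they summed to 1690 and 722 CPM, against Ctrl maxima of 1110 and 415 CPM. The fibroblast sum was above every Ctrl heart in 8 of 9 hMut hearts, the 6 beside these at 1115 to 1232 CPM, and the macrophage sum also in replicates 5 (443.9 CPM) and 7 (455.8 CPM). Cardiomyocyte markers summed to 43231 and 40935 CPM in replicates 6 and 9 and to 53501 to 55229 CPM in replicates 5, 7 and 8, so 5 of 9 hMut hearts were below every Ctrl heart. Among Ctrl hearts, replicates 3 and 2 had the highest sums of the 12 B and plasma cell markers, at 292 and 77.3 CPM. Of the 10 endothelial markers 3 were called higher in hMut, as was 1 of 4 tested atrial markers, and Myl7, Sln and the plasma cell marker Tnfrsf17 were at 0 in at least 1 library. The member results were therefore also computed without hMut replicates 6 and 9 and without Ctrl replicates 2 and 3, and Ern1 was the 1 member called each time. In bulk heart RNA, fewer cells of a type, less RNA per cell and a different part of the heart sampled cannot be told apart.

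Per length, the chaperones Hspa5 and Calr were the most abundant of the 10 transcripts and the sensor Ern1 the least. On the RPKM scale (CPM divided by gene length in kilobases), Hspa5 reached 137 ± 11.8 in Ctrl hearts (SD, n = 8). It encodes BiP, the Hsp70 chaperone of the ER lumen that also holds the sensors inactive. Calr, the calcium-binding lectin chaperone calreticulin, followed at 97.8 ± 5.26 RPKM. Hsp90b1, which encodes the ER form of Hsp90, GRP94, measured 67.0 ± 5.55 RPKM and Herpud1, an ER membrane protein of the degradation machinery, 64.8 ± 10.996 RPKM, and these neighbours were separated by less than their SDs. Dnajb9 (20.5 ± 1.81), Xbp1 (19.0 ± 1.17) and Atf6 (18.5 ± 2.16 RPKM) formed the next group, and their ranges of mean ± SD overlapped. Pdia4 had 12.6 ± 1.30, Sdf2l1 4.60 ± 0.716 and Ern1 2.22 ± 0.181 RPKM. In hMut hearts the 4 highest and the 3 lowest kept these places, with Hspa5 at 128 ± 15.5 and Ern1 at 2.99 ± 0.456 RPKM, while Atf6 (21.5 ± 1.69), Dnajb9 (20.0 ± 1.86) and Xbp1 (19.9 ± 1.11 RPKM) again lay close together.

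**Figure D1:**
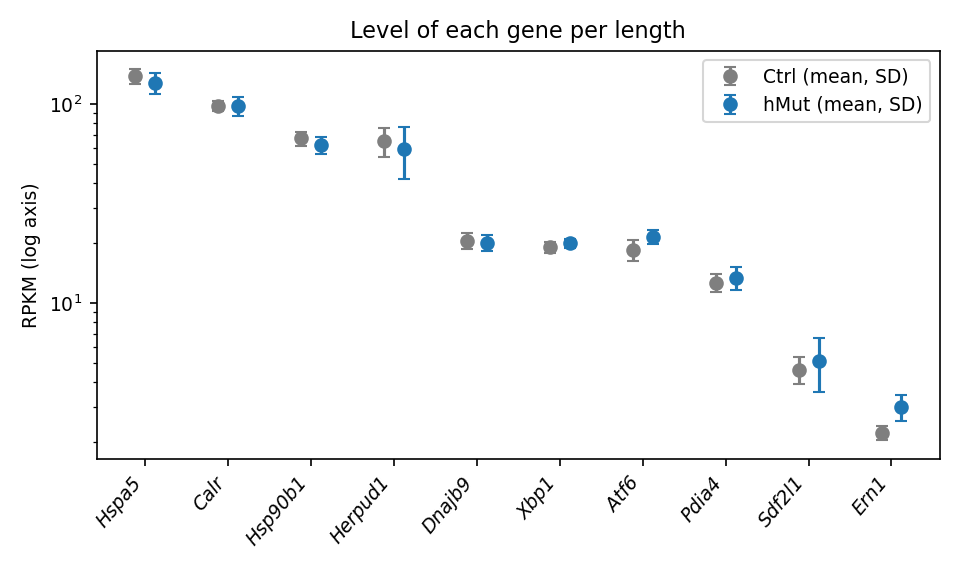
Levels of the 10 transcripts in RPKM, which is CPM per kilobase of gene length (log axis), with the mean (point) and SD (bar) of the 8 Ctrl (grey) and 9 hMut (blue) hearts and the genes ordered by their Ctrl mean. Hspa5 stands at the top (Ctrl mean 137 RPKM) and Ern1 at the bottom (Ctrl mean 2.22 RPKM).

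The promoters of the most abundant members carried the known ER stress elements. In the RefSeq promoter table (GRCm38.p6, 250 bases before to 50 bases after each start), 9 of the 10 members had an entry, and each entry was found once in GRCm39, whose coordinates are given. Atf6 had none. The ER stress response element (ERSE), bound by ATF6 together with NF-Y and spelled CCAAT and CCACG with 9 free bases between them, was present on either strand in 39 of 32851 promoters (0.119%) and in 3 of the 9 member promoters, those of Hspa5, Hsp90b1 and Calr. The related ERSE-II, which is ATTGG and CCACG with 1 free base between them and so shares CCACG with ERSE, was present in 12 promoters (0.0365%), Herpud1 among them. The members were listed as targets of ATF6, IRE1 and XBP1, so such elements in their promoters follow from that choice. The shares over all promoters are given for scale and are no test of the members. These windows of 30 bases are shown because they mark the members through which ATF6 and XBP1 are classically read. They run 5′ to 3′ on the gene's own strand, with the fixed letters of the element in capitals.
Hspa5 ERSE, chr2:34662032-34662061 (plus strand): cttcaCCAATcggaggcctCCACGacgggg
Hsp90b1 ERSE, distal, chr10:86541496-86541525 (minus strand): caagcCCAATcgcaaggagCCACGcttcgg
Hsp90b1 ERSE, proximal, chr10:86541391-86541420 (minus strand, element on the opposite strand): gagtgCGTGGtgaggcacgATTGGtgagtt
Calr ERSE, chr8:85573698-85573727 (minus strand, element on the opposite strand): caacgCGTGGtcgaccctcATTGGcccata
Herpud1 ERSE-II, chr8:95112996-95113025 (plus strand): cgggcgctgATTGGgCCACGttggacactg

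Counted from the RefSeq starts, the elements began 65 bases before that of Hspa5 and 212 and 107 bases before that of Hsp90b1. They began 162 bases before that of Calr and 52 bases before that of Herpud1. The deposited start of Hspa5 (chr2:34661982) differs from the RefSeq start and lies upstream of its ERSE window. The core of the XBP1-binding unfolded protein response element, TGACGTG, was present in 661 promoters (2.01%) and among the members in that of Hspa5. The C/EBP-ATF element read by ATF4, TGATGNAA, was present in 1304 promoters (3.97%) and among the members in that of Herpud1. The 4 members with an ERSE or ERSE-II were also the 4 with the highest level per length. A link between the elements and these levels was not tested. The letters are a description of these windows, and binding was not measured.

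The 2 groups were then compared gene by gene to ask whether the unfolded protein response was altered at the RNA level in hearts with the proofreading-deficient polymerase. With edgeR's quasi-likelihood test and a Benjamini-Hochberg threshold of 0.05 over all 16195 genes, 4.62% of genes were called (3.48% higher and 1.14% lower in hMut). Of the 10 members 1 was called, Ern1, which rose. The other 9 did not pass the test. The log2 fold changes of the members ran from -0.13 to 0.43 with a median of 0.03 and 5 of 10 above 0, beside a median of 0.00 over all genes tested, of which 8178 were above 0.

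**Figure D2:**
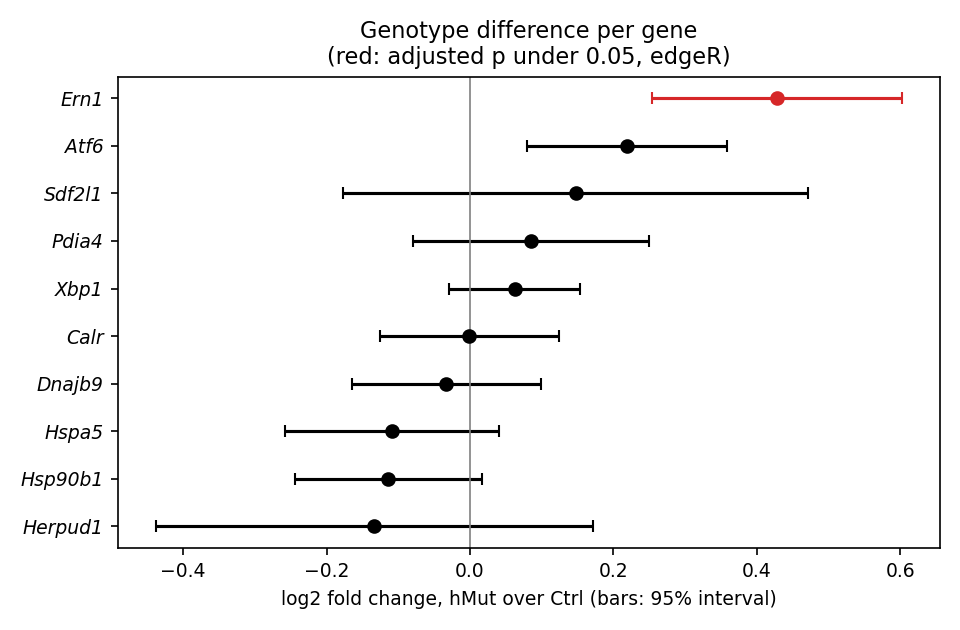
Log2 fold change of each of the 10 genes in hMut against Ctrl hearts, with its 95% confidence interval (edgeR quasi-likelihood fit, 9 against 8 hearts). Ern1 is the member past the threshold, at 0.43, and the intervals of Atf6 and Ern1 lie above 0.

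Ern1 (chr11:106285476-106378678, minus strand) encodes IRE1α, the kinase and endoribonuclease that splices Xbp1. The 9 hMut hearts ran from 19.0 through a median of 23.8 to 31.4 CPM and the 8 Ctrl hearts from 16.4 through 17.9 to 20.8 CPM. In 8 of 9 hMut hearts the level was above every Ctrl heart, and the exception, hMut replicate 8 at 19.0 CPM, lay inside the Ctrl range. The highest levels were those of hMut replicate 9 (31.4 CPM) and replicate 5 (28.3 CPM). The mean was 24.4 ± 3.73 CPM (n = 9) against 18.1 ± 1.48 CPM (n = 8), a log2 fold change of 0.43 (SE 0.083, adjusted p = 0.00652) or 1.35-fold with a 95% confidence interval of 1.19 to 1.52. By p-value Ern1 ranked 156 among the genes tested. It was called under each of the 28 alternative settings, with log2 fold changes of 0.36 to 0.47, and without hMut replicates 6 and 9 its log2 fold change was 0.36 (adjusted p = 0.0115).

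Atf6 (chr1:170532243-170695340, minus strand) encodes the membrane-bound precursor of the transcription factor. Its levels ran from 177.0 through 200.8 to 224.0 CPM in hMut and from 141.6 through 174.8 to 206.8 CPM in Ctrl hearts. All 9 hMut hearts were above the Ctrl median, but only 2 were above every Ctrl heart, since Ctrl replicate 4 reached 206.8 CPM. The means were 198.4 ± 15.6 and 170.5 ± 19.9 CPM and the log2 fold change was 0.22 (SE 0.067, 95% interval 0.08 to 0.36), which missed the threshold with edgeR (adjusted p = 0.0630). It was past the threshold with DESeq2 (adjusted p = 0.0351, where 9.19% of all genes were called, 6.13% higher and 3.06% lower), with limma-voom (0.0124), with sex as a covariate (0.0462) and without Ctrl replicate 4 (0.0216). The call for Atf6 thus depended on the test, on the sex term and on 1 Ctrl heart, while its sign was the same in every setting.

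Xbp1 (chr11:5470659-5475893, plus strand), the substrate of IRE1 and itself a target of ATF6, ran from 57.9 through 65.1 to 71.3 CPM in hMut and from 56.4 through 60.7 to 66.7 CPM in Ctrl hearts. The ranges overlapped over most of their width, although 8 of 9 hMut hearts were above the Ctrl median. Its log2 fold change was 0.06 (SE 0.044, adjusted p = 0.361), and the 95% interval of the fold was 0.980 to 1.11. Eif2ak3, which encodes the sensor PERK and is no member, measured 11.5 ± 1.13 CPM in hMut and 11.6 ± 1.12 CPM in Ctrl hearts (log2 fold change -0.01, SE 0.070, adjusted p = 0.924).

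**Figure D3:**
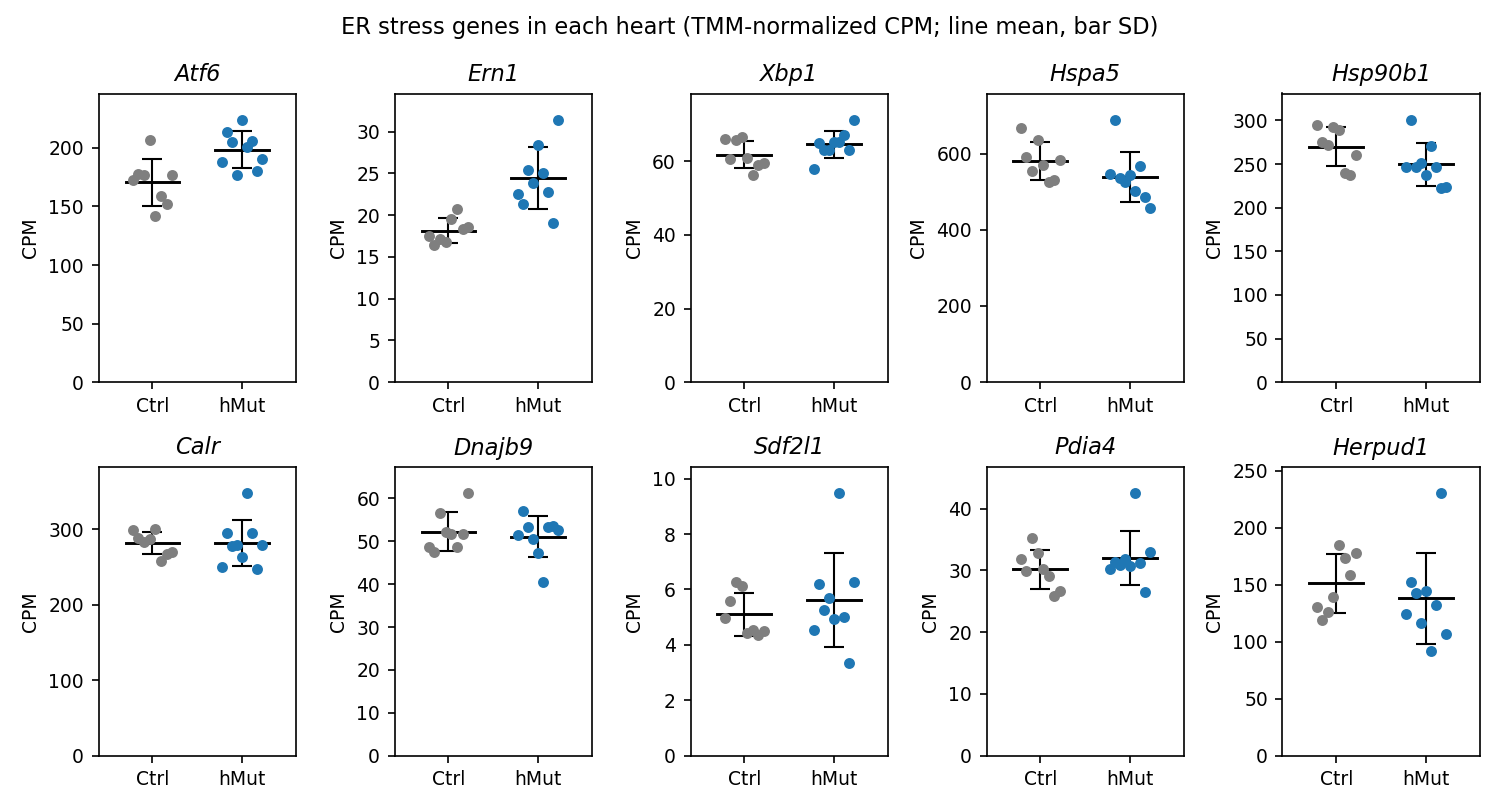
TMM-normalized CPM of the 10 genes, 1 panel per gene, with a point for each of the 8 Ctrl and 9 hMut hearts and bars for the mean and SD. In Ern1, 8 of 9 hMut hearts lie above every Ctrl heart, whereas in Hspa5 only hMut replicate 2 does.

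The chaperones with an ERSE did not pass the test, and their group means were equal or lower in hMut hearts. Hspa5 (chr2:34661982-34667559, plus strand) ran from 457.1 through 535.8 to 688.8 CPM in hMut and from 524.1 through 575.7 to 667.8 CPM in Ctrl hearts. In 8 of 9 hMut hearts Hspa5 was below the Ctrl median and in 3 (replicates 6, 8 and 9) below every Ctrl heart, while hMut replicate 2 alone was above every Ctrl heart. The means were 539.2 ± 65.5 and 581.4 ± 49.7 CPM, with a log2 fold change of -0.11 (SE 0.071, adjusted p = 0.329). The 95% interval of the fold was 0.837 to 1.03, so the largest increase inside it was 1.03-fold.

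Hsp90b1 (chr10:86526073-86541373, minus strand) had a similar count of hearts below the Ctrl range. Its levels were 222.6 through 246.8 to 300.8 CPM in hMut and 237.9 through 273.5 to 294.2 CPM in Ctrl hearts, with hMut replicates 5, 8 and 9 below every Ctrl heart and replicate 2 above all. The log2 fold change was -0.11 (SE 0.062, adjusted p = 0.245, fold 0.924 with an interval of 0.844 to 1.01). Without hMut replicate 2 the log2 fold changes of Hspa5 and Hsp90b1 were -0.16 and -0.15, still short of the threshold (adjusted p = 0.0770 and 0.0767, edgeR). The gene 1810014B01Rik lies across Hsp90b1 on the opposite strand, and since the strand setting of the counting is not given in the sources used here, reads of the pair cannot be told apart. It held 4.07% as many counts as Hsp90b1.

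Calr (chr8:85568479-85573563, minus strand) had nearly the same mean in both groups, 281.4 ± 30.2 CPM in hMut and 281.6 ± 15.2 CPM in Ctrl hearts. Its log2 fold change of -0.00 (SE 0.059, adjusted p = 0.995) came with a fold interval of 0.917 to 1.09. The hMut hearts spread more widely, from 247.1 through 278.4 to 347.5 CPM against 258.3 through 284.8 to 300.4 CPM, and the highest was hMut replicate 6.

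The luminal cofactors and the oxidoreductase gave values on both sides of 0 and none passed. Dnajb9 (chr12:44252342-44257109, minus strand) encodes ERdj4, a J-domain cofactor of BiP and a target of spliced XBP1. It ran from 40.5 through 52.7 to 56.9 CPM in hMut and from 47.4 through 51.6 to 61.2 CPM in Ctrl hearts, with a log2 fold change of -0.03 (SE 0.063, adjusted p = 0.763). Pdia4 (chr6:47773075-47790364, minus strand) encodes ERp72, a disulfide isomerase of the ER lumen. It ran from 26.4 through 31.2 to 42.5 CPM and from 25.8 through 30.1 to 35.2 CPM, with a log2 fold change of 0.08 (SE 0.079, adjusted p = 0.501). For these genes the fold intervals were 0.892 to 1.07 and 0.946 to 1.19.

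Sdf2l1 and Herpud1 were the most variable members, and their intervals were the widest. Sdf2l1 (chr16:16948002-16950247, minus strand) encodes a resident ER protein that works with J-domain cofactors of BiP. It had 122 to 400 counts per library and ran from 3.35 through 5.26 to 9.48 CPM in hMut and from 4.36 through 4.75 to 6.28 CPM in Ctrl hearts (log2 fold change 0.15, SE 0.155, adjusted p = 0.558, fold interval 0.884 to 1.39). Its coefficient of variation was 30.1% in hMut and 15.6% in Ctrl hearts. Herpud1 (chr8:95113066-95122005, plus strand) ran from 92.1 through 132.0 to 230.3 CPM in hMut and from 119.1 through 148.9 to 185.0 CPM in Ctrl hearts. Its log2 fold change was -0.13 (SE 0.146, adjusted p = 0.574, fold interval 0.738 to 1.13), with coefficients of variation of 28.7 and 16.96%. In 8 of the 10 members the coefficient of variation was larger in hMut hearts, the exceptions being Xbp1 (5.58 against 6.13%) and Atf6 (7.84 against 11.7%). The difference in spread was not tested, and the same count was not made over all genes tested.

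The hMut hearts at the edges were few and differed from each other. Replicate 6 was above every Ctrl heart in 4 members and below in 3. It held the highest hMut level of Sdf2l1 (9.48 CPM), Pdia4 (42.5 CPM) and Calr (347.5 CPM) and the lowest of Herpud1 (92.1 CPM) and Dnajb9 (40.5 CPM). Replicate 8 had the reverse arrangement, with the highest Herpud1 (230.3 CPM) and the lowest hMut level of 5 members, Sdf2l1 (3.35 CPM), Pdia4 (26.4 CPM), Calr (247.1 CPM), Hsp90b1 (222.6 CPM) and Ern1 (19.0 CPM). Replicate 2 held the highest hMut level of Hspa5, Hsp90b1 and Dnajb9. The fibroblast and macrophage marker sums given above were highest in replicate 6, as were the 12 B and plasma cell markers among hMut hearts (68.9 CPM, below Ctrl replicates 2 and 3) and the 8 T cell markers (88.7 CPM against at most 13.6 CPM in Ctrl). Their part in these levels was not tested. Without hMut replicates 6 and 9 the log2 fold changes of Sdf2l1, Pdia4 and Calr were -0.03, 0.01 and -0.05.

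Several members moved together from heart to heart. Across the 17 hearts, after subtraction of each group's mean log2 CPM, 29 of the 45 member pairs had a positive and 16 a negative Pearson correlation, with a median of 0.168. In 6 pairs both coefficients passed a permutation test within groups after Benjamini-Hochberg adjustment over the 45 pairs (100000 permutations, two-sided). The points share library depth and cell composition.

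The closest pair was Sdf2l1 and Pdia4, with r = 0.90 (permutation p = 1e-05, the smallest these permutations can give, adjusted 0.000450) and rho = 0.86 (permutation p = 4e-05, adjusted 0.00180). Without the 2 hearts farthest from the median of Sdf2l1, hMut replicates 6 and 8, r was 0.76. Pdia4 also moved with Calr (r = 0.78, permutation p = 0.00113, adjusted 0.0127) with rho = 0.77 (permutation p = 0.000500, adjusted 0.00750). Without hMut replicate 6 and Ctrl replicate 3, farthest in Pdia4, r was 0.67. Hspa5 moved with Hsp90b1 (r = 0.80, permutation p = 0.000390, adjusted 0.00877) with rho = 0.65 (permutation p = 0.00693, adjusted 0.0346). Without hMut replicates 2 and 9, farthest in Hspa5, r was 0.63. Hsp90b1 and Calr had r = 0.68 (permutation p = 0.00505, adjusted 0.0325) and rho = 0.80 (permutation p = 0.000190, adjusted 0.00427). Without hMut replicate 2 and Ctrl replicate 7, farthest in Hsp90b1, r was 0.74. These 4 pairs join luminal folding proteins, but the other pairs of such members did not pass in both coefficients. Sdf2l1 and Calr passed in r (0.79) but not in rho, and Hsp90b1 and Pdia4 (r = 0.53) in rho but not in r. Hsp90b1 and Sdf2l1 had r = 0.52. Hspa5 had r = 0.06 with Pdia4, 0.12 with Sdf2l1 and 0.26 with Calr. For Dnajb9 with these luminal members, r ran from -0.51 (Pdia4) to 0.20 (Hspa5). With Herpud1, which is not among them, Dnajb9 had r = 0.48 and did not pass in either coefficient.

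Herpud1 ran opposite to Sdf2l1 and Pdia4. Its correlation was -0.82 with Sdf2l1 (permutation p = 0.000850, adjusted 0.0127) and -0.76 with Pdia4 (permutation p = 0.00230, adjusted 0.0172), with rho of -0.71 (permutation p = 0.00312, adjusted 0.0201) and -0.66 (permutation p = 0.00605, adjusted 0.0340). Without the 2 farthest hearts, hMut replicates 6 and 8, r was -0.59 and -0.57. The Ctrl hearts also split. Herpud1 was at 119.1 to 139.5 CPM in replicates 1 to 4 and at 158.4 to 185.0 CPM in replicates 5 to 8. There Sdf2l1 was at 4.96 to 6.28 and 4.36 to 4.54 CPM. Pdia4 overlapped, at 29.9 to 35.2 and 25.8 to 30.2 CPM. By sex read from the counts, Ctrl replicates 5 to 7 were female and the other Ctrl hearts male. The B and plasma cell marker sum was also higher in replicates 1 to 4 (33.3 to 292 CPM) than in 5 to 8 (9.38 to 15.6 CPM). Macrophage markers summed to 395 to 415 against 285 to 362 CPM. T cell markers summed to 4.49 to 13.6 against 2.81 to 3.61 CPM, and the other marker sums overlapped. The permutation treats Ctrl hearts as exchangeable, and the correlations were not adjusted for sex or markers. The part of this split in them was not tested. The correlations of Herpud1 with Calr (-0.58), Hsp90b1 (-0.29) and Hspa5 (-0.00) did not pass (permutation test, adjusted p = 0.181, 0.451 and 0.987). Without hMut replicates 6 and 9, the libraries with the highest fibroblast and macrophage marker sums, the 6 correlations lay between -0.75 and 0.89 and kept their signs, with Pdia4 and Calr at 0.57.

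**Figure D4:**
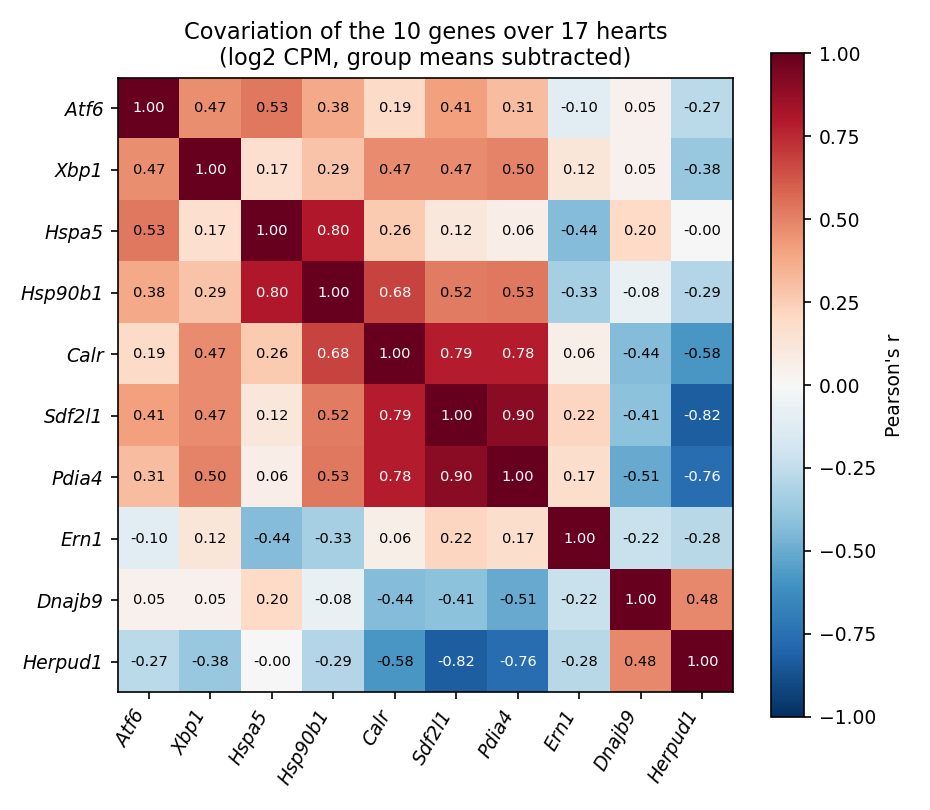
Pearson correlations between the 10 genes across 17 hearts, computed on log2 CPM after subtraction of the group mean; colour runs from -1 to 1. Sdf2l1 and Pdia4 (0.90) and Hspa5 and Hsp90b1 (0.80) stand out as positive pairs, and Herpud1 is negative with Sdf2l1 (-0.82) and Pdia4 (-0.76).

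The wider pathway was described with lists of its parts, which were written by hand. Apart from the ATF4 arm, few genes of any list were called, and edgeR called no gene of any list lower. Of the 105 tested genes that are not members, the ATF4 arm included, 80 were above 0, beside 8178 of all 16195 genes tested. At an unadjusted p under 0.05, 34 of the 105 were higher and 7 lower. Over all 16195 genes tested, 4178 had an unadjusted p under 0.05 in either direction (edgeR). Of 13 sensors, their proteases and transcription factors, 2 rose, Ern1 and Creb3l2, a transmembrane transcription factor that is cut like ATF6 (log2 fold change 0.19, SE 0.050, adjusted p = 0.0365, 45.0 ± 3.34 against 39.5 ± 2.57 CPM). At an unadjusted p under 0.05 (edgeR), 5 of the 13 were higher and 0 lower. Of 19 chaperones and cochaperones 0 were called by edgeR (2 higher and 1 lower at an unadjusted p under 0.05), 1 by DESeq2 and 1 by limma-voom, with a median log2 fold change of 0.02 and 13 above 0. The 1 was Canx, the membrane lectin chaperone calnexin, at -0.13 (adjusted p = 0.0882 by edgeR). Of 18 disulfide isomerases and oxidases 1 rose, the oxidase Ero1a (28.4 ± 9.70 against 18.9 ± 1.11 CPM, log2 fold change 0.59, SE 0.152, adjusted p = 0.0353). The median of that list was 0.06, with 4 genes higher and 3 lower at an unadjusted p under 0.05 (edgeR). DESeq2 and limma-voom each called 6 of its genes, 3 higher and 3 lower, the lower ones being the membrane thioredoxins Tmx1, Tmx3 and Tmx4.

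Of 26 tested genes of ER-associated degradation 2 rose, each of which encodes an ER membrane protein of that pathway. At an unadjusted p under 0.05 (edgeR), 10 of the 26 were higher and 3 lower. The ubiquitin ligase Rnf185 measured 32.0 ± 4.61 CPM in hMut and 25.1 ± 1.20 CPM in Ctrl hearts (log2 fold change 0.35, SE 0.074, adjusted p = 0.0113). Derl1, which encodes Derlin-1, measured 82.8 ± 4.74 and 73.3 ± 2.10 CPM (0.18, SE 0.037, adjusted p = 0.0123). Of 26 genes of the translocon, signal peptidase and oligosaccharyltransferase 0 were called by edgeR (5 higher and 0 lower at an unadjusted p under 0.05), 2 by DESeq2 and 1 by limma-voom. The call of Creb3l2 was lost in 15 of the 28 alternative settings (adjusted p from 0.0520 to 0.0976), among them those that left out Ctrl replicate 1, 2, 3, 5, 7 or 8 or hMut replicate 4, 5, 6, 7 or 9. The call of Ero1a was lost in 12 (0.0550 to 0.0748), among them those that left out Ctrl replicate 1, 2, 5, 6, 7 or 8 or hMut replicate 5, 6 or 7. Without hMut replicate 2 the counts of called genes were larger, with 6 disulfide isomerases and oxidases (3 higher), 8 degradation genes (6 higher), 3 of the translocon list (3 higher) and 1 chaperone (Canx, lower). Without hMut replicate 1 they were 5 (3 higher), 5 (5 higher), 1 (higher) and 0. Calls over all genes tested were also more, at 1792 without replicate 2 and 1182 without replicate 1 against 749 in the main comparison. Without hMut replicate 5 the translocon list had 1.

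The arm of PERK and ATF4 held most of the calls. Of its 15 genes 10 rose, with a median log2 fold change of 1.002 over the list. Asns, the asparagine synthetase, measured 33.04 ± 16.4 CPM in hMut and 2.81 ± 0.327 CPM in Ctrl hearts (log2 fold change 3.56, SE 0.325, adjusted p = 4.56e-06). Trib3, a pseudokinase that feeds back on ATF4, had a log2 fold change of 2.87 (SE 0.299, adjusted p = 1.10e-05). Chac1, which degrades glutathione, and Sesn2, a leucine sensor, had 2.08 and 1.29 (adjusted p = 0.000962 and 0.000994). Atf4 itself measured 107 ± 36.7 and 53.4 ± 4.44 CPM (log2 fold change 1.002, SE 0.162, adjusted p = 0.00147). These 5 genes had the smallest adjusted p of the list, and in each the lowest hMut level exceeded the highest Ctrl level. Their separation is tied to that choice, so the 0.543% of all genes tested that showed it is given for scale. The remaining called genes of the arm did not separate fully, with 7 or 8 of 9 hMut hearts over the Ctrl maximum. Ddit3, which encodes CHOP, rose by 1.23 (adjusted p = 0.0181) and the eIF2α phosphatase subunit Ppp1r15a by 0.63 (adjusted p = 0.0263). The members Hspa5, Hsp90b1, Calr, Dnajb9 and Pdia4 were not among the genes called in the same hearts, and Herpud1, the 1 member counted in this arm, was not called. Over all lists without the members, 14 of 105 tested genes were called, all higher, where 3.48% of all genes tested were called higher. Of these 14, 10 belong to the PERK and ATF4 arm, and the rest were Creb3l2, Ero1a, Rnf185 and Derl1.

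**Figure D5:**
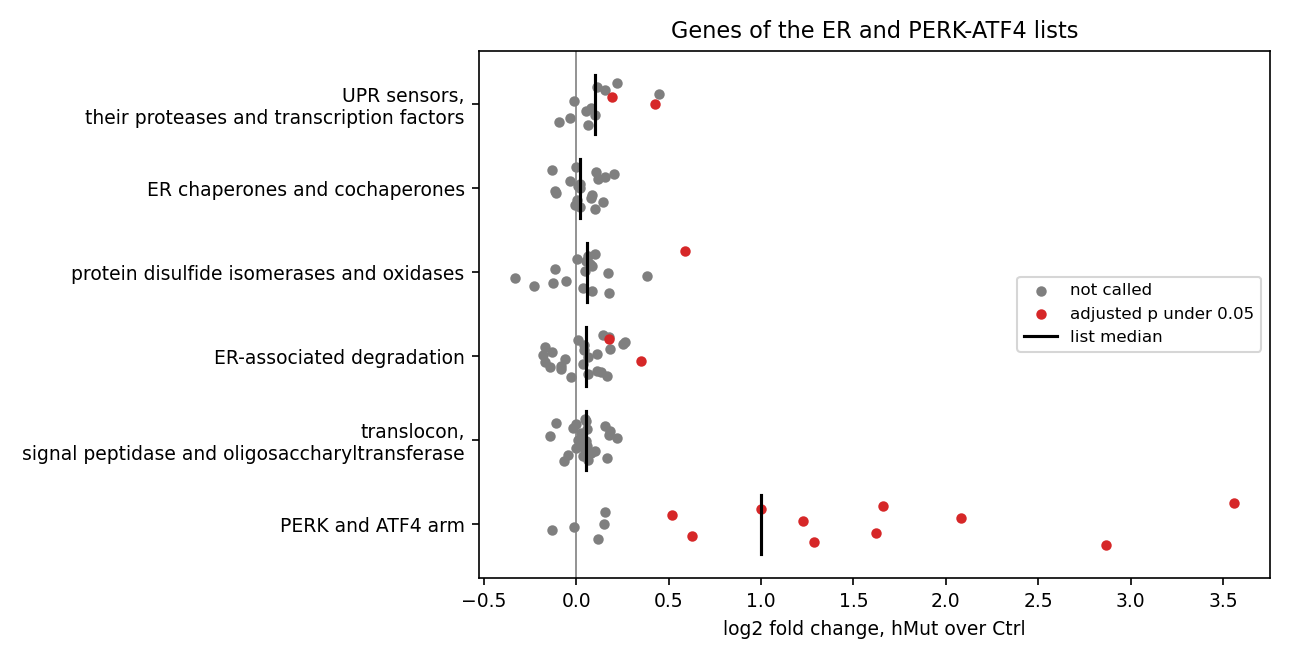
Log2 fold change in hMut against Ctrl hearts for each tested gene of the 6 pathway lists, 1 point per gene, with the called genes marked and the list medians drawn. The PERK and ATF4 arm has a median of 1.002, whereas the medians of the other lists lie between 0.02 and 0.10.

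The genes whose levels followed Hspa5 and Ern1 most closely were listed for each. By Pearson correlation of group-centred log2 CPM across the 17 hearts, the 5 genes most like Hspa5 were Bend3 (0.89), Fv1 (0.88), Stom (0.86), Cdc5l (0.86) and Prob1 (0.86), with Spearman correlations of 0.81 to 0.91. The 5 most like Ern1 were Eef1e1 (0.89), Stbd1 (0.88), Gnpda1 (0.84), Slc22a21 (0.83) and Sap30 (0.82), with Spearman correlations of 0.60 to 0.90. These are the highest of 16195 genes and describe 17 hearts that share depth and cell composition. None of the other 9 members was among the 5 of either gene.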

How the data were processed

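Bulk RNA-seq of heart tissue from 17 mice, 9 hMut and 8 Ctrl, was grouped by the depositors' labels. The authors' processing of the poly(A) libraries ran from fastp read trimming through alignment by HISAT2 2.2.1 (build GRCm39) to gene counting by featureCounts 2.0.6, and the deposited values are those raw counts, not normalized. The strand setting and annotation release of the counting are not given in the sources used here. Gene length and coordinates were used as deposited.

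The 10 genes and all gene lists were chosen with earlier results of these data known. Counts were TMM-normalized, filtered with filterByExpr and tested by edgeR 4.0.16 in R 4.3.3 (quasi-likelihood), with the group as the only term, over 16195 genes, with Benjamini-Hochberg adjustment and a threshold of 0.05. The SE is the absolute log2 fold change over the root of F, and intervals are at 95%. Each mouse gave 1 library, and none of 136 library pairs held identical counts. Members had at least 122 counts in every library, and the part of counting error in the spread between hearts was not estimated. Correlations used log2 CPM (prior count 2) minus the group mean. Sex, read from the counts as 3 females and 5 males in Ctrl and 2 females and 7 males in hMut, served as a covariate in 1 alternative. Named genes are the members, at most 5 called genes of each list with the smallest adjusted p, the 5 genes most like Hspa5 and Ern1, and Polg. Eif2ak3, Canx, Tmx1, Tmx3, Tmx4, Ddit3 and Ppp1r15a were added with their values in view. On simulated counts for this comparison (16195 genes), 59% of 100 genes changed by 0.5 and 76% of 100 changed by 1 on the log2 scale were called, along with 11 unchanged genes. Of the genes on the lists, 181 of 182 symbols were in the table. Alternatives were DESeq2 (1.42.0), limma-voom with sample quality weights (limma 3.58.1), RLE and upper-quartile normalization, library sizes without mitochondrial genes, other count filters, sex, a replicate block and libraries left out.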

Additional observations from a re-analysis of the deposited data

Results flagged for a closer look

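For the 10 members and the 9 other called genes named from the pathway lists, the highest and lowest heart of each group was compared with the spread of the rest (Dixon's test, 38 groups, of which chance flags about 5%). In 7 groups 1 heart stood away from the others, and in each it was the highest hMut heart. Replicate 6 of hMut was that heart for Sdf2l1 (9.48 CPM, next 6.27), Pdia4 (42.5 CPM, next 32.999), Calr (347.5 CPM, next 295.3) and Creb3l2 (52.3 CPM, next 46.04). Replicate 2 stood away for Hspa5 (688.8 CPM, next 566.8), replicate 8 for Herpud1 (230.3 CPM, next 152.1) and replicate 9 for Ero1a (50.4 CPM, next 33.7).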

How the results depend on the processing

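Under 28 alternative settings Ern1 was called in every one (log2 fold change 0.362 to 0.468, adjusted p 9.66e-05 to 0.0381), and Atf6 stayed above 0 (0.183 to 0.264). Of the 10 members, 2 were called (Atf6 and Ern1) with DESeq2, limma-voom and sex as a covariate, and 1 to 2 when single hearts were left out. Signs near 0 changed. Calr was at 0.000458 with no filter on low counts, 0.00516 without Ctrl replicates 2 and 3, and -0.0435 to 0.0212 with single hearts left out. Dnajb9 was at 0.00291 and Sdf2l1 at -0.0257 without hMut replicates 6 and 9, and Dnajb9 at -0.0537 to 0.00424 with single hearts left out. The cause was not tested.

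Counts of called list genes moved. Disulfide isomerases and oxidases (main 1) gave 6 with DESeq2 and limma-voom (3 higher and 3 lower), 2 with upper-quartile normalization (1 higher, and Tmx3 lower), 0 with sex, with the replicate block and without Ctrl replicates 2 and 3, and 0 to 6 with single hearts left out. Degradation genes (main 2) gave 5 with DESeq2 (5 higher), 8 with limma-voom (6 higher), 0 with the block, 1 without Ctrl replicates 2 and 3, and 2 to 8 with single hearts left out. The translocon list (main 0) gave 2, 1 and 0 to 3 with DESeq2, limma-voom and single hearts left out, and chaperones (main 0) gave 1, 1 and 0 to 1, each time Canx, lower. Sensors and their factors (main 2) gave 1 with no filter, with the block, without hMut replicates 6 and 9 and without Ctrl replicates 2 and 3, and 1 to 3 with single hearts left out. The PERK and ATF4 arm (main 10) gave 8 to 10. Over all genes, 749 were called in the main comparison, 1502 with DESeq2, 2081 with limma-voom, 463 with no filter, 373 without Ctrl replicates 2 and 3, 431 without hMut replicates 6 and 9, and 395 to 1792 with single hearts left out.

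Replicate numbers name different mice. Of 8 same-numbered pairs 1 had a correlation of deviations over 0.1 (range -0.225 to 0.339), so they were not taken as paired. With the number as a block 195 genes were called, Ern1 had a log2 fold change of 0.371 (adjusted p = 0.0180, edgeR), Rnf185 0.302 (0.0651) and Derl1 0.160 (0.114).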
